A study of Homo sapiens with 12 samples.

Results

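The 8 genes described here, *CDKN1A*, *CCNG1*, *PLK2*, *BAX*, *ZMAT3*, *SESN1*, *GDF15* and *MDM2*, are known target genes of the transcription factor p53. They were chosen by symbol from the 10976 genes measured in cerebral organoids (COs), and all 8 were found. All are protein-coding, and the gene intervals printed below are those of the deposited files, on GRCh38. COs are brain-like tissues that self-organize from pluripotent cells under a neural differentiation protocol. The WT COs came from H1 human embryonic stem cells, and the KO COs from lines KO#2 and KO#10, in which CRISPR-Cas9 was directed at *c-JUN* of H1 cells. A KO line stands for 1 clone, both clones share the H1 background, and the WT line was not itself edited. Every line was sampled at day 12 and day 24 with 2 libraries, so that a day holds 2 WT and 4 KO libraries. Each library came from total RNA of pooled COs, depleted of ribosomal RNA. The deposited value of a gene is a whole-number normalized score, used here as the level of its RNA, and the sequencing depth behind it is unknown.

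p53 is held at a low level by the ubiquitin ligase MDM2, itself the product of a p53 target gene, and by the related protein MDM4. DNA damage and other stresses free p53 from this control, and p53 then activates genes that stop the cell cycle, promote apoptosis, aid repair or adjust metabolism. The activity of p53 is set largely at the protein level. Human pluripotent stem cells and early neural progenitors are known to respond readily to p53. Several of its targets also answer to other factors. *GDF15*, for example, is raised by the integrated stress response through ATF4 and CHOP.

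p53 binds an element of 20 bases made of 2 units of 10 bases. Promoter windows of RefSeq (GRCh38.p14), from 250 bases before to 50 bases after a transcription start, were searched for this p53 response element with no spacer, its 4 fixed bases intact and at most 3 mismatches elsewhere. The element reads alike on both strands. All 8 genes had windows, 15 in all, and the element was found in 4 windows of 3 genes. Over all windows of that table it was found in 392 of 35116, or 1.12%. The matches are shown because they are the stretches of these windows that come closest to the sequence p53 binds, with the element in capitals and, in *MDM2*, also a TGACTCA heptamer, the motif bound by AP-1 (the family of c-JUN).
*GDF15*: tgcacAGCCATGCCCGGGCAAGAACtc
*MDM2*: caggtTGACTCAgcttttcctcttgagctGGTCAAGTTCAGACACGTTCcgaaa
*SESN1*: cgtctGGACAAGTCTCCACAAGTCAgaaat

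The *GDF15* stretch lies at chr19:18386181-18386207 on the plus strand, with the element at +29 to +48 from the start and 3 mismatches. It fell in an exon of 3 of the 5 GENCODE 29 transcripts of the gene, across the end of the 5′ UTR and the beginning of the coding sequence. The *MDM2* stretch lies at chr12:68808894-68808947 on the plus strand, with the element at -94 to -75 from the nearer of 2 starts that share it and 2 mismatches. It fell in an intron of 7 of 34 transcripts and outside the other 27, upstream of a start that lies inside the gene. The heptamer begins at -118. The *SESN1* stretch lies at chr6:109009013-109009042 and reads on the minus strand, with the element at -49 to -30 and 3 mismatches, in an intron of 2 of 7 transcripts and outside the other 5. The windows of the other 5 genes had no match within 3 mismatches. The AP-1 motif TGANTCA, with C or G in the middle and read on both strands, was in 2 of the 15 windows, both of *MDM2*, against 4.95% of all windows. These are matches of letters in short windows, and elements farther away were not searched.

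The edited gene was looked at first. *JUN* had values of 4 and 8 in the WT libraries of day 12 against 13 to 19 under KO, and of 13 and 15 in those of day 24 against 29 to 39, so that its RNA was higher, not lower, in the libraries labelled KO (log2 difference 1.25, SE 0.168, adjusted *p* = 0.0184 at day 24 by limma). RNA level does not show whether an edited allele still makes protein, and WT and KO are used below as the labels give them. The labels name embryonic stem cells as the tissue, whereas 9 pluripotency markers summed to only 46 to 68 in the KO libraries of day 24. Replicates of a line and day correlated with *r* from 0.909 to 0.957. The library of KO#10 replicate 1 at day 24 stood apart from the other 3 KO libraries of its day, with summed mesenchyme markers of 2890 against 134 to 168 and summed endoderm markers of 1321 against 33 to 112. The labels do not say whether replicates of a line and day were separate cultures, and the methods speak of separate batches only for the experiments in general, so that the *p*-values below measure the spread between these libraries, which may be technical.

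*CDKN1A* encodes p21, the inhibitor of cyclin-dependent kinases through which p53 halts the cell cycle (ENSG00000124762, chr6:36676460-36687337, plus strand). The WT libraries of day 12 had values of 19 and 15, those of KO#2 36 and 37, and those of KO#10 38 and 25. By day 24 the WT libraries stood at 35 and 54, those of KO#2 at 6 and 15, and those of KO#10 at 17 and 14. The 2 genotypes thus did not overlap on either day, with KO above WT at day 12 and below WT at day 24. *CCNG1*, which encodes cyclin G1, a partner of the phosphatase PP2A that acts on MDM2 (ENSG00000113328, chr5:163437569-163446151, plus strand), gave 668 and 822 in the WT libraries of day 12, with 553 and 508 for KO#2 and 668 and 472 for KO#10. By day 24 both WT libraries held 1009, with 266 and 290 for KO#2 and 452 and 396 for KO#10. All 4 KO libraries were far below WT at day 24, while at day 12 the highest KO value equalled the lower WT value. The value of 1009 was held by 4 genes of each WT library and exceeded by 29, and such high values sit on steps that all libraries share, so that the equality of the replicates is no measure of their error.

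*PLK2* encodes a polo-like kinase that is induced by stress and, in neurons, by activity (ENSG00000145632, chr5:58453982-58460139, minus strand). It was measured at 15 and 16 in the WT libraries of day 12, with 42 and 40 for KO#2 and 33 and 38 for KO#10. The WT libraries of day 24 held 31 and 29, with 21 and 19 for KO#2 and 39 and 20 for KO#10. Every KO library was at least at 33 at day 12 and both WT libraries were at most at 16, whereas at day 24 the KO#10 library that stood apart was above WT and the other 3 were below it.

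Of the apoptosis genes, *BAX* encodes a pore-forming protein of the outer mitochondrial membrane (ENSG00000087088, chr19:48954815-48961798, plus strand). The WT libraries of day 12 had 44 and 48, those of KO#2 52 and 46, and those of KO#10 39 and 60. For day 24 the WT values were 46 and 60, the KO#2 values 27 and 31, and the KO#10 value 34 in both replicates. The groups were mixed at day 12, and at day 24 every KO library was below both WT libraries. *ZMAT3* encodes a zinc finger RNA-binding protein that is known as a p53 effector in growth control (ENSG00000172667, chr3:178960121-179072215, minus strand). Its values were low, with 4 and 6 for WT, 12 in both KO#2 libraries, and 8 and 7 for KO#10 at day 12. The day 24 values were 6 and 11 for WT, 3 and 7 for KO#2, and 4 and 6 for KO#10. KO was above WT at day 12, and the groups overlapped at day 24.

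Of the stress and metabolism genes, *SESN1* encodes sestrin 1, which restrains mTORC1 signalling (ENSG00000080546, chr6:108984309-109094846, minus strand). The WT libraries of day 12 had 12 and 15, those of KO#2 16 and 17, and those of KO#10 16 and 18. The WT libraries of day 24 reached 19 and 27, while both KO#2 libraries were at 9 and the KO#10 libraries at 12 and 6. The KO libraries were slightly above WT at day 12 and below it at day 24. *GDF15* encodes a secreted stress cytokine of the TGF-beta superfamily (ENSG00000130513, chr19:18374731-18389176, plus strand). Day 12 values were 1 and 5 for WT, 5 and 11 for KO#2, and 9 and 8 for KO#10. Day 24 values were 35 and 73 for WT, 1 and 2 for KO#2, and 3 for both KO#10 libraries. Only the 2 WT libraries of day 24 held more than 11.

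*MDM2* gave a different picture (ENSG00000135679, chr12:68808177-68845544, plus strand). Day 12 values were 56 and 58 for WT, 36 and 49 for KO#2, and 46 and 48 for KO#10. Day 24 values were 53 and 80 for WT, 40 and 63 for KO#2, and 39 and 59 for KO#10. Every KO library was below both WT libraries at day 12, an order whose share over all genes was not counted. The groups overlapped at day 24, although each KO library was below the WT library of its replicate number. *MDM4*, the other inhibitor of p53, was at 96 and 53 for WT and 56 to 107 for KO at day 12. The WT libraries of day 24 were at 20 and 17, those of KO#2 at 58 and 53, and those of KO#10 at 29 and 36, so that every KO library was above WT. The share of all genes in that order was not counted either.

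**Figure D1:**
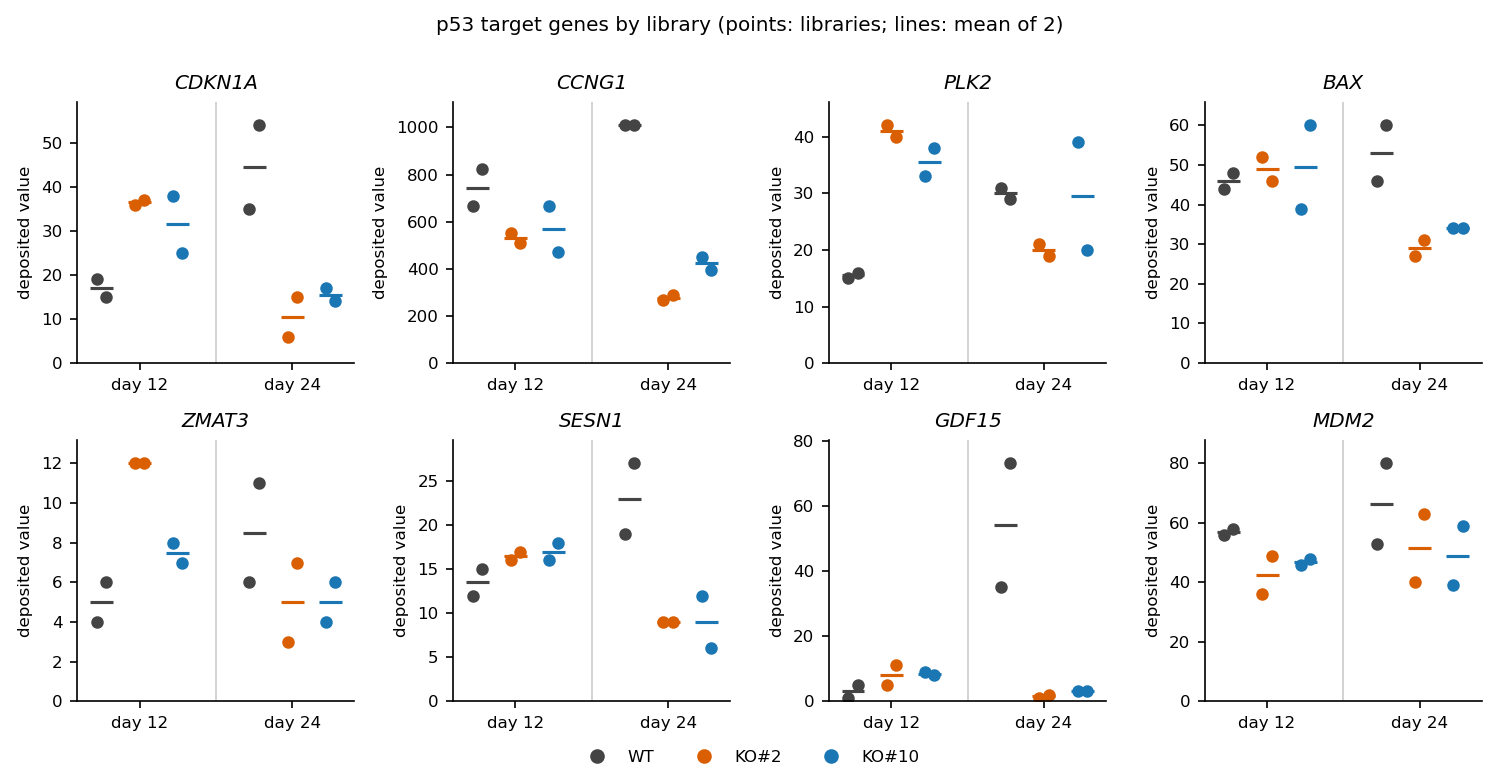
Deposited value (normalized score, linear axis from 0) of the 8 p53 target genes in each of the 12 libraries at day 12 and day 24, with WT in grey, KO#2 in orange and KO#10 in blue. Points are libraries and short lines are means of 2 libraries. *GDF15* is above 11 only in the WT libraries of day 24, while *PLK2* and *CDKN1A* are higher in KO than in WT at day 12.

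At day 24, 4 of the 8 p53 target genes, *GDF15*, *CDKN1A*, *CCNG1* and *SESN1*, were called lower in the KO COs. *BAX* was lower by less than 2-fold, *PLK2* and *MDM2* did not pass the test, and *ZMAT3* was not tested. Called means an adjusted *p* under 0.05 together with a difference of at least 1 on the log2 (value + 1) scale, a 2-fold difference, by limma with Benjamini-Hochberg adjustment over all 9289 genes tested at this day. *GDF15* fell by 4.04 on this scale (SE 0.416, adjusted *p* = 0.0117), from a mean level of 54 ± 26.9 (SD, n = 2) in WT to 2.25 ± 0.957 (n = 4) in KO. With KO values this low, the size of that difference rests on the pseudocount, and it ranged from -4.54 to -2.96 over the settings tried. *GDF15* also passed the filter on low values (10 or more in 2 libraries) through the WT libraries alone, and *SESN1* reached it in only 1 KO library, so that a difference was built into their being tested. Both were also called with a filter of at least 1 in 1 library. *CDKN1A* fell by 1.75 (SE 0.393, adjusted *p* = 0.0345), with mean levels of 44.5 ± 13.4 and 13 ± 4.83. *CCNG1* fell by 1.55 (SE 0.227, adjusted *p* = 0.0196), with mean levels of 1009 and 351 ± 87.9. *SESN1* fell by 1.28 (SE 0.271, adjusted *p* = 0.0313), with mean levels of 23 ± 5.66 and 9 ± 2.45.

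*BAX* was lower in KO by 0.73 (SE 0.165, adjusted *p* = 0.0352), which passed the *p* threshold and not the 2-fold threshold. The difference of *MDM2* was -0.40 (SE 0.266, adjusted *p* = 0.301) and that of *PLK2* -0.33 (SE 0.288, adjusted *p* = 0.426). Under the settings that kept all libraries, the adjusted *p* of *MDM2* by limma was at lowest 0.056. Without the KO#10 library that stood apart, *PLK2* was at -0.56 with an adjusted *p* of 0.0201, still short of 2-fold. *ZMAT3* was below the filter and not tested at day 24. Thus 4 of 7 tested genes were called lower and 0 higher, where 3.79% of all tested genes were called lower and 4.22% higher, and 4 was also the count with that KO#10 library left out. In 5 of the 8 genes (*CDKN1A*, *CCNG1*, *BAX*, *SESN1* and *GDF15*) every KO library was below both WT libraries, an order found in 21.8% of all tested genes. The median difference of the 7 tested genes was -1.28, beside 0.01 over all tested genes.

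These calls at day 24 rested on few libraries. With either WT library left out, when *GDF15* falls below the filter, or with KO#2 replicate 2 left out, none of the 8 genes was called, and 1 gene (*GDF15*) was called without KO#10 replicate 2. *SESN1* alone lost its call without KO#2 replicate 1. The counts over all genes fell alike, to 1 higher and 1 lower without WT replicate 2 and at most 12 and 17 in the other 3 cases, and the differences of the 4 genes kept their direction wherever they were tested. In whole organoids, fewer cells that express a gene and less of its RNA per cell cannot be told apart.

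At day 12 the order was different. *PLK2* was the 1 gene called, and it was higher in KO by 1.25 on the log2 scale (SE 0.142, adjusted *p* = 0.028), with mean levels of 15.5 ± 0.707 (SD, n = 2) in WT and 38.3 ± 3.86 (n = 4) in KO. *CDKN1A* had a difference of 0.95 (SE 0.199, adjusted *p* = 0.143), *ZMAT3* of 0.83 (SE 0.302, adjusted *p* = 0.362) and *SESN1* of 0.30 (SE 0.147, adjusted *p* = 0.513). None of these 3 passed the test, although in each of them, as in *PLK2*, every KO library was above both WT libraries, an order found in 8.23% of all tested genes. With the replicate number as a block, *CDKN1A* at day 12 had an adjusted *p* of 0.0445 and was still short of 2-fold. *CCNG1* was at -0.44 (adjusted *p* = 0.443), *MDM2* at -0.35 (adjusted *p* = 0.475) and *BAX* at 0.08 (adjusted *p* = 0.923). *GDF15* was below the filter and not tested at day 12. The count of 1 of 7 higher and 0 lower stands beside 0.0225% of all tested genes called higher, which was 2 of 8885, and 0.0675% called lower. That fit left out the replicate number. With it as a block, 36 of all tested genes were called higher and 35 lower, and *PLK2* was still the 1 target gene called. *PLK2* was not called with any 1 of the 6 libraries of day 12 left out (adjusted *p* from 0.097 to 0.557), and its difference then stayed between 1.20 and 1.31.

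*MDM4* was called higher in KO at day 24, by 1.16 (SE 0.286, adjusted *p* = 0.0416), and was at 0.17 at day 12 (SE 0.298, adjusted *p* = 0.895). The *MDM4* call was lost with the replicate number as a block (adjusted *p* = 0.0574). It was also lost without either WT library, either KO#2 library or KO#10 replicate 2 of day 24. Over the settings tried its difference ranged from 1.009 to 1.335. With the clones apart at day 24, *MDM4* was called in KO#2, at 1.54 (adjusted *p* = 0.0301 by limma), and not in KO#10, at 0.78 (0.0999).

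**Figure D2:**
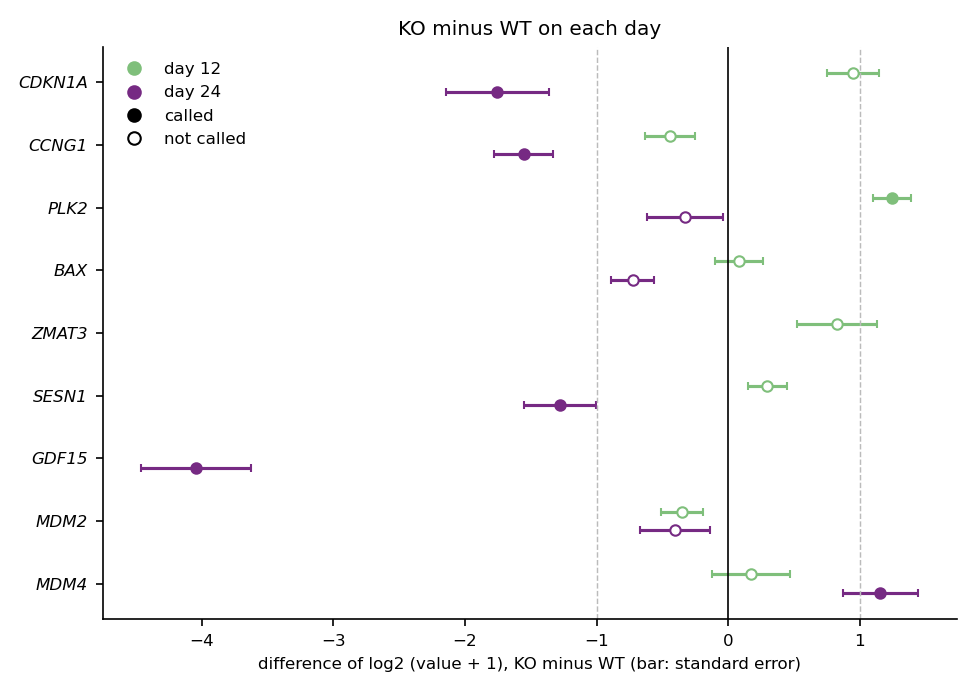
KO minus WT difference of log2 (value + 1) at day 12 (green) and day 24 (purple) for the 8 target genes and *MDM4*, with bars of 1 standard error from limma, filled points for called genes and dashed lines at a 2-fold difference. *PLK2* is called to the right of 0 at day 12, and *GDF15*, *CDKN1A*, *CCNG1* and *SESN1* to the left at day 24. *GDF15* at day 12 and *ZMAT3* at day 24 were not tested.

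The change with time was then compared in a fit of all 12 libraries, with 9952 genes tested. In WT COs, *GDF15* rose from day 12 to day 24 by 3.90 (SE 0.537, adjusted *p* = 7.18e-04), from a mean of 3 ± 2.83 to 54 ± 26.9, and *CDKN1A* rose by 1.31 (SE 0.382, adjusted *p* = 0.0236), from 17 ± 2.83 to 44.5 ± 13.4 (SD, n = 2 each). *PLK2* was higher at day 24 by 0.91 (adjusted *p* = 0.0264), short of 2-fold. The other 5 genes, with differences from 0.19 (*BAX* and *MDM2*) to 0.71 (*SESN1*), did not pass. So 2 of 8 were called higher and 0 lower, where 7.17% of all tested genes were called higher and 7.88% lower. *CDKN1A* was no longer called without WT replicate 1 or replicate 2 of day 12, or without WT replicate 2 of day 24, and *GDF15* was called under all 20 settings. *GDF15* reached the filter value in this fit in both WT libraries of day 24 and in only 1 other, KO#2 replicate 2 of day 12. It was thus tested through at least 1 of those WT libraries, so that its rise in WT and its interaction with day carry the same limit as at day 24. The 20 settings include the filter of at least 1 in 1 library, which every library of *GDF15* met.

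In KO COs the same 2 genes fell. *CDKN1A* fell by 1.39 from day 12 to day 24 (SE 0.27, adjusted *p* = 0.00209), from a mean of 34 ± 6.06 to 13 ± 4.83 (SD, n = 4 each). *GDF15* fell by 1.52 (SE 0.38, adjusted *p* = 0.00838), from 8.25 ± 2.5 to 2.25 ± 0.957. A further 5 genes were lower at day 24 at an adjusted *p* under the threshold and by less than 2-fold, and these were *SESN1* at -0.86 (adjusted *p* = 0.00334), *BAX* at -0.62 (0.00621), *CCNG1* at -0.67 (0.0127), *PLK2* at -0.67 (0.0173) and *ZMAT3* at -0.86 (0.0298). *MDM2* was the exception, at 0.14 (SE 0.186, adjusted *p* = 0.571). The call of 2 of 8 lower and 0 higher stands beside 5.59% of all tested genes called lower and 5.88% higher. With a pseudocount of 5, *GDF15* was at -0.86 and only *CDKN1A* was called, and without KO#2 replicate 2 of day 24 *ZMAT3* was called as well, which gave 3. *MDM4* fell with time in WT by 1.90 (SE 0.363, adjusted *p* = 0.0036) and was lower by 0.91 in KO (adjusted *p* = 0.0151).

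**Figure D3:**
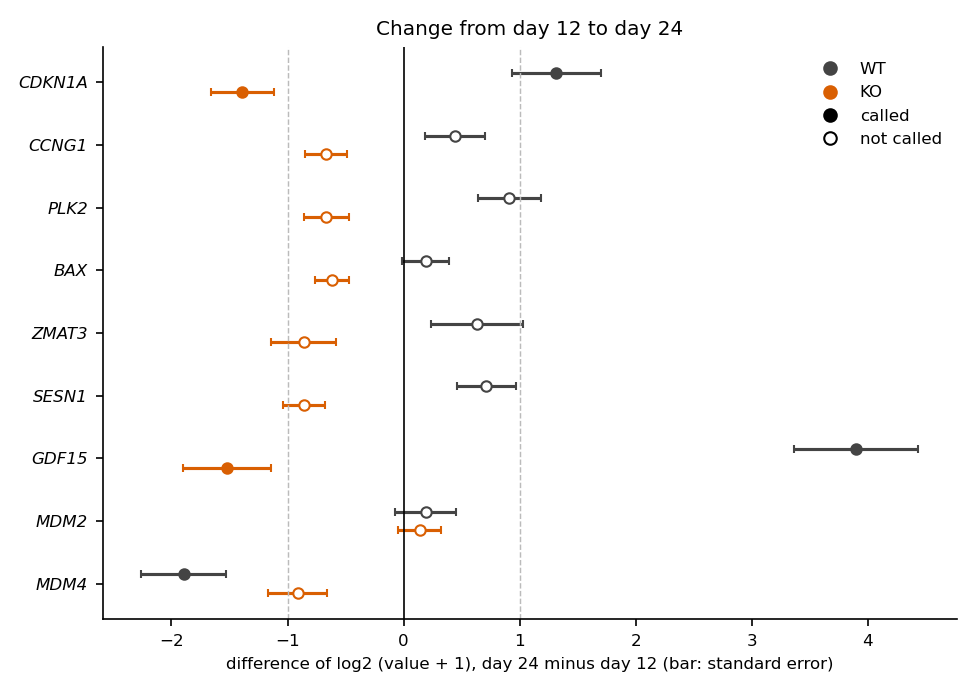
Difference of log2 (value + 1) between day 24 and day 12 in WT (grey) and KO (orange) for the 8 target genes and *MDM4*, with bars of 1 standard error, filled points for called genes and dashed lines at a 2-fold difference. *CDKN1A* and *GDF15* are called to the right of 0 in WT and to the left in KO, and *MDM2* is near 0 in both.

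Whether the KO minus WT difference itself changed from day 12 to day 24 was tested as the interaction of genotype and day. It was called for 4 of the 8 genes, all lower at day 24, and for 0 higher, where 0.854% of all tested genes were called lower and 0.452% higher. The change was -5.42 for *GDF15* (SE 0.657, adjusted *p* = 0.00282), -2.70 for *CDKN1A* (SE 0.468, adjusted *p* = 0.0257), -1.57 for *SESN1* (SE 0.315, adjusted *p* = 0.0367) and -1.575 for *PLK2* (SE 0.334, adjusted *p* = 0.0399). *ZMAT3* at -1.49 (adjusted *p* = 0.117), *CCNG1* at -1.11 (adjusted *p* = 0.0818) and *BAX* at -0.81 (adjusted *p* = 0.107) did not pass. *MDM2* was at -0.05 (SE 0.321, adjusted *p* = 0.948). The median of the 8 genes was -1.53, beside 0.02 over all tested genes. Only *GDF15* was called in all 20 settings. It was the 1 gene called without WT replicate 1 or 2 of day 12, KO#2 replicate 1 or 2 of day 12, KO#10 replicate 1 of day 12 or WT replicate 2 of day 24, and 2 genes, *GDF15* and *CDKN1A*, were called without KO#10 replicate 2 of day 12, KO#2 replicate 2 of day 24 or KO#10 replicate 2 of day 24. *PLK2* alone lost its call without WT replicate 1 or KO#2 replicate 1 of day 24, and *SESN1* alone lost its call with clones as separate groups (adjusted *p* = 0.0615). Without the KO#10 library that stood apart, 5 were called, with *CCNG1* added.

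The clones were compared with WT one at a time at day 24. In KO#2, *GDF15* at -4.40 (adjusted *p* = 0.0231), *CDKN1A* at -2.07 (0.0401) and *CCNG1* at -1.86 (0.0214) were called lower, 3 of 7 tested, where 4.26% of all tested genes were called lower and 4.74% higher. *BAX* was lower by less than 2-fold at -0.84 (adjusted *p* = 0.0431), and *SESN1* was at -1.24 (adjusted *p* = 0.0605). In KO#10, *CCNG1* was the 1 gene called lower, at -1.25 (adjusted *p* = 0.0492), where 0.14% of all tested genes were called lower and 0.14% higher. *GDF15* was at -3.69 (adjusted *p* = 0.052), *CDKN1A* at -1.44 (0.139) and *SESN1* at -1.31 (0.116) there. The SE of 0.14 behind the *CCNG1* call takes in the equal WT values of 1009, which are no measure of error. The *CCNG1* call in KO#10 was lost with the replicate number as a block (adjusted *p* = 0.0891) and with any 1 of the 6 libraries of day 24 left out, and the KO#2 calls were all lost without either WT or either KO#2 library. Without KO#10 replicate 1 or 2, KO#2 still had 3 calls, with *CDKN1A* lost (adjusted *p* = 0.0723 and 0.0724) and *SESN1* gained (0.0477 and 0.0475). The clones themselves were not told apart at day 24. None of the 7 tested genes, and 0 of 9289 genes, was called between KO#2 and KO#10 by limma, with 1 of the 7 genes (*CCNG1*, lower in KO#2 by 0.61, adjusted *p* = 0.825) and 479 genes (5.16%) at an unadjusted *p* under 0.05. A missed threshold does not show that the clones were alike, with 2 libraries each.

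At day 12 *PLK2* was at 1.35 in KO#2 against WT (adjusted *p* = 0.111) and at 1.14 in KO#10 against WT (adjusted *p* = 0.292), and no target gene was called in either clone by limma, with 3 and 2 of 7 genes at an unadjusted *p* under 0.05. At day 12, where same-numbered libraries deviated together, the replicate number as a block brought the *PLK2* difference in KO#2 past the threshold (adjusted *p* = 0.0477).

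How closely the 8 genes followed each other was described by Pearson's *r* of their log2 values over the 12 libraries, which share lines, days and a normalization. Of the 28 pairs, 17 had *r* above 0.5. The highest was 0.82 between *BAX* and *SESN1*, and *CDKN1A* had 0.80 with *GDF15*, 0.80 with *SESN1* and 0.81 with *ZMAT3*. *MDM2* stood outside this group, with *r* from -0.48 (with *PLK2*) to 0.43 (with *GDF15*). Among all genes tested over 12 libraries, those most like *CDKN1A* were *DNMBP* (0.894), *PIM3* (0.891) and *CCDC9* (0.889). Those most like *CCNG1* were *FGFR4* (0.961), *SLC39A14* (0.955) and *TPST2* (0.953), and those most like *GDF15* were *B4GALT1* (0.933), *PRKAB2* (0.930) and *REEP6* (0.928). *SESN1* was followed by *TMEM214* (0.940), *SYDE2* (0.934) and *STX3* (0.934). *PLK2* had *CTSB* (0.892), *TIMP3* (0.872) and *AXL* (0.855) as its nearest. No nearest gene was shared between any of these target genes, so that this does not set *PLK2* apart.

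Other p53 target genes were taken from 4 lists by function, with 56 genes, of which 42 were measured. At day 24, 5 of the 35 tested (14.3%) were called lower in KO and 0 higher, beside 3.79% and 4.22% of all tested genes, and the median difference was -0.36. With the clones apart, 5 were called lower and 1 higher in KO#2, where 4.26% and 4.74% of all tested genes were. In KO#10 none was called by limma, with 13 at an unadjusted *p* under 0.05 and a median of -0.34. How these calls depend on single libraries was not tested. *PERP*, a desmosomal protein gene of the apoptosis list, was at 15 and 23 in WT against 1 to 3 in KO (-2.90, SE 0.48, adjusted *p* = 0.0207). *GADD45A*, of the arrest list, was at 14 and 24 against 3 to 9 (-1.60, SE 0.396, adjusted *p* = 0.0417). *FDXR*, which encodes a mitochondrial reductase, was at 19 and 22 against 5 to 10 (-1.41, SE 0.257, adjusted *p* = 0.0235). *BBC3*, which encodes the BH3-only protein PUMA, was at 19 and 23 against 7 to 12 (-1.16, SE 0.248, adjusted *p* = 0.0314). *AEN*, which encodes a nuclease of apoptosis, was at 35 and 47 against 14 to 22 (-1.01, SE 0.228, adjusted *p* = 0.0349). In all 5, every KO library was below both WT libraries, an order found in 21.8% of all tested genes. For genes picked by a lower call that order adds little. *PERP* and *GADD45A* reached the filter in no KO library and *FDXR* in 1, as *GDF15* and *SESN1* did, so that a lower value in KO was built into their being tested. In all, 8 of the 35 genes reached it in fewer than 2 KO libraries. Of the 12 tested genes of the feedback and other targets, none was called by limma, with 6 at an unadjusted *p* under 0.05, and the largest differences were those of *TRIM22* (1.22, adjusted *p* = 0.101) and *ASCC3* (-0.90, adjusted *p* = 0.0235, under 2-fold).

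At day 12 none of 33 tested genes of these 4 lists was called by limma, with 8 at an unadjusted *p* under 0.05 and a median difference of 0.16. The largest differences were 0.97 for *PLK3* (adjusted *p* = 0.199), 0.84 for *BBC3* (0.333), 0.78 for *CD82* (0.137) and 0.77 for *GADD45A* (0.189). For the interaction, *PERP* at -2.53 (adjusted *p* = 0.0328), *GADD45A* at -2.37 (0.0328), *BBC3* at -2.00 (0.0367) and *FDXR* at -1.48 (0.0382) were called lower, 4 of 37 tested (10.8%), with 0 called higher, beside 0.854% and 0.452% of all tested genes. *PERP* passed the filter there through the WT libraries of day 24 alone. With time in WT, 8.11% of these 37 genes were called higher and 10.8% lower, near the 7.17% and 7.88% of all tested genes. The 3 that rose were *PERP* by 1.29 (adjusted *p* = 0.0264), *KITLG* by 1.20 (0.0205) and *GADD45A* by 1.11 (0.038), and the 4 that fell were *TRIM22* at -3.11 (0.00164), *E2F7* at -1.49 (6.46e-04), *CD82* at -1.40 (0.0235) and *PIDD1* at -1.13 (0.006). With time in KO, 12 of the 37 genes (32.4%) fell and 0 rose, beside 5.59% and 5.88% of all tested genes. They included *TRIM22* at -1.84 (adjusted *p* = 0.00223), *EPHA2* at -1.58 (4.98e-06), *DDB2*, a damage sensor of nucleotide excision repair, at -1.35 (5.19e-05), *AEN* at -1.29 (1.54e-04) and *BTG2* at -1.28 (0.00113). *DDB2* was at 60 to 83 in the KO libraries of day 12 and 22 to 32 in those of day 24.

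Of the list of regulators of p53, 11 of 14 genes were measured. At day 24 *MDM4* was the 1 gene of 10 tested that was called higher, and 0 were lower, beside 4.22% and 3.79% of all tested genes. With the clones apart, 2 of the 10 were called higher and 1 lower in KO#2, where 4.74% and 4.26% of all tested genes were. In KO#10 none was called by limma, with 2 at an unadjusted *p* under 0.05. At day 12 none of 11 was called by limma and 4 were at an unadjusted *p* under 0.05, with *CHEK1* at -0.52 (adjusted *p* = 0.398) and *CHEK2* at -0.50 (0.424) differing most. With time in WT, *ATM*, the kinase that signals DNA breaks, fell by 1.45 (adjusted *p* = 0.0172) along with *MDM4*, and *RCHY1*, another ubiquitin ligase of p53, rose by 1.05 (adjusted *p* = 0.00744). These were 1 of 11 higher and 2 lower, beside 7.17% and 7.88% of all tested genes. *RCHY1* also rose in KO, by 1.02 (adjusted *p* = 7.53e-04), as the 1 regulator called there, where 5.88% of all tested genes were called higher.

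Cell cycle genes that the DREAM complex represses when p21 is high were followed as the downstream side of *CDKN1A*. None of the 15 was called in KO against WT at either day, with time in either genotype, or in the interaction, by limma. The genes at an unadjusted *p* under 0.05 were 4 at day 24, 0 at day 12, 6 with time in WT, 5 with time in KO and 1 in the interaction. Their median difference was -0.16 at day 24 and -0.15 at day 12, with 11 and 14 of the 15 below 0. With the clones apart at day 24, 1 of the 15 was called lower in KO#2, where 4.26% of all tested genes were, and 0 in KO#10. The 15 genes summed to 883 and 899 for WT against 689 to 823 for KO at day 12, and to 805 and 816 against 585 to 688 at day 24, so that the sum was lower in every KO library on both days. Genes with high values, such as *CDK1*, weigh most in these sums. At day 24 the largest differences were -0.97 for *CDK1* (SE 0.15, adjusted *p* = 0.0196, under 2-fold), whose value was 212 for both WT libraries against 93 to 124 for KO, and 0.66 for *E2F1* (adjusted *p* = 0.0741). At day 12 they were -0.46 for *CDK1* (adjusted *p* = 0.735) and -0.37 for *BUB1* (adjusted *p* = 0.468).

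The integrated stress response, which shares *GDF15* with p53, moved in part with the p53 targets. Of its 12 genes 11 were measured and 9 tested. At day 24 *DDIT3*, which encodes CHOP, was at 30 and 64 in WT against 9 to 15 in KO (-1.84, SE 0.315, adjusted *p* = 0.0218). *ATF3* was at 28 and 36 against 9 to 12 (-1.55, SE 0.182, adjusted *p* = 0.0172). These 2 of 9 were called lower and 0 higher, beside 3.79% and 4.22% of all tested genes, and the median of the list was -0.81. With time in WT, 4 of the 9 genes rose, where 7.17% of all tested genes did, *DDIT3* by 2.05 (adjusted *p* = 0.00164), *ATF3* by 2.01 (0.00296), *PPP1R15A* by 1.76 (0.00634) and *ASNS* by 1.34 (0.043), and with time in KO none was called by limma, with 1 at an unadjusted *p* under 0.05. The interaction was called lower for *ATF3* at -2.56 (adjusted *p* = 0.0257) and *DDIT3* at -2.16 (0.0346), where 0.854% of all tested genes were. At day 12 none was called by limma, with 4 at an unadjusted *p* under 0.05 and *PPP1R15A* at 1.13 (adjusted *p* = 0.277).

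**Figure D4:**
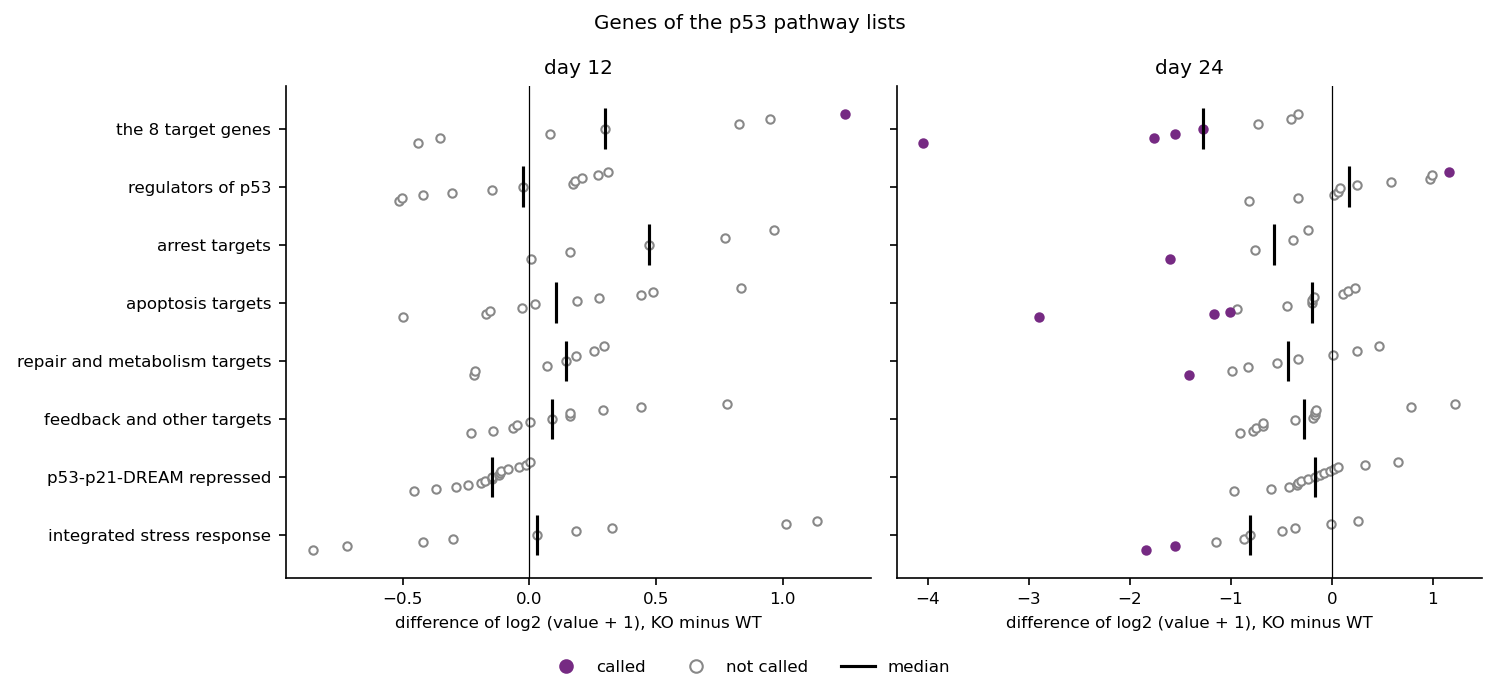
KO minus WT difference of log2 (value + 1) at day 12 and day 24 for each tested gene of the p53 pathway lists, with purple points for called genes, open points for the others and a black bar at each list's median. At day 24 the called genes of the target lists lie to the left of 0, the median of the 8 target genes is -1.28 and that of the genes repressed through DREAM is -0.16. The 2 panels have different horizontal scales.

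Markers of other cell types differed between the same groups of libraries. The counts called at day 24 stand beside 3.79% of all tested genes called lower in KO and 4.22% called higher. At day 24 the 9 markers of hepatic and yolk sac endoderm summed to 7266 and 7429 in WT against 33 to 1321 in KO, and 4 of 9 were called lower in KO, with *AFP* listed at 5585 for both WT libraries, at 42 and 1 for KO#2, and at 902 and 0 for KO#10. The 7 markers of simple epithelium summed to 683 and 916 in WT and 42 to 254 in KO, and all 7 were called lower. The 9 pluripotency markers summed to 485 and 945 in WT and 46 to 68 in KO, where 8 of 8 tested were called lower. *POU5F1*, which encodes OCT4, was at 75 and 236 in WT against 3 to 6 in KO. Of the lower calls, 5 of the pluripotency, 4 of the epithelial and 3 of the endoderm markers reached the filter in fewer than 2 KO libraries. The 6 mesenchyme markers summed to 2070 and 2443 in WT and 134 to 2890 in KO, with 0 called by limma and 2 at an unadjusted *p* under 0.05. The 9 neuronal markers summed to 177 and 331 in WT and 406 to 2028 in KO, and 3 of 9 were called higher in KO (*MAP2*, *ELAVL4* and *GAP43*). The 6 markers of neural progenitors summed to 174 and 387 in WT and 222 to 454 in KO, and 2 of 6 were called higher (*PAX6* and *SOX1*). In KO#10 alone against WT no marker of these lists was called, where 0.14% of all tested genes were called lower and 0.14% higher. The median difference of the pluripotency markers was still -3.58 in each clone. In the KO libraries of day 24, 0 to 7 of the endoderm markers and 0 to 2 of the pluripotency markers were at 0, and no epithelial marker was.

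At day 12 the endoderm markers summed to 4 and 22 in WT and 1 to 24 in KO, with 2 to 8 of 9 at 0 in each library. The 6 markers of neural progenitors summed to 395 and 428 in WT and 482 to 747 in KO, with no overlap, and the 9 neuronal markers to 180 and 268 in WT and 267 to 354 in KO. None of either list was called by limma at day 12, with 3 of 6 and 2 of 4 tested at an unadjusted *p* under 0.05. The epithelial markers were at 344 and 362 in WT and 198 to 319 in KO, and the pluripotency markers at 907 and 1102 in WT and 499 to 572 in KO, with *POU5F1*, *TDGF1* and *DNMT3B* called lower. Of all tested genes, 0.0675% were called lower at day 12. With time in WT all 9 endoderm markers rose, alongside *GDF15* and *CDKN1A*, where 7.17% of all tested genes were called higher. With time in KO, 8 of 9 pluripotency markers and 7 of 7 epithelial markers fell, where 5.59% of all tested genes were called lower. The part of these cell types in the differences of the p53 target genes was not tested.

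**Figure D5:**
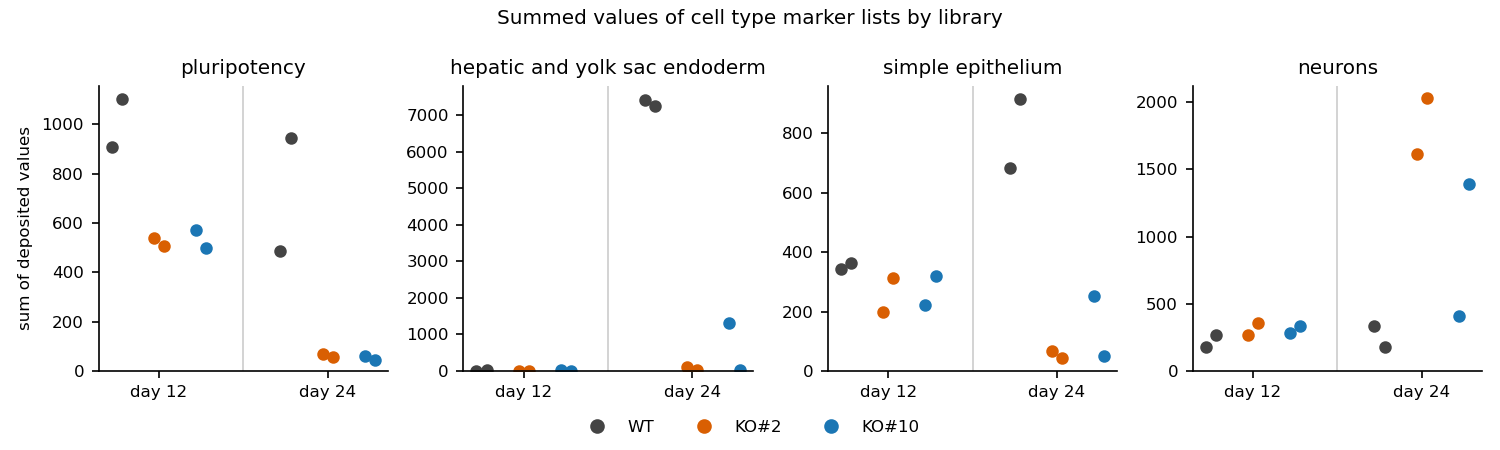
Summed deposited values of 9 pluripotency, 9 endoderm, 7 simple epithelium and 9 neuronal markers in each library at day 12 and day 24 (linear axes from 0), with WT in grey, KO#2 in orange and KO#10 in blue. At day 24 the WT libraries are above every KO library for the first 3 lists and below every KO library for neurons.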

How the data were processed

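RNA was sequenced from 12 libraries of COs, made from 3–4 pooled organoids each with a strand-specific kit, as paired reads. The authors deposited whole-number scores, 1 per gene and library, for 10976 genes. These are not counts: every library had a median of 17 and a highest value of 5585, with 269 to 271 distinct values and totals of 473637 to 483149. The method of normalization is not given in the sources used here. The submitters' processing notes name bcl2fastq, RSEM, Bowtie2 and the mouse build mm10, whereas all 10976 identifiers are in human GENCODE 29 and 10965 intervals overlap the same gene there (GRCh38). Coordinates are printed as deposited. Depth is unknown, so that no counting interval could be given, and whether counting used strand is not stated.

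Groups came from the labels. Values were taken as log2 (value + 1). A gene was tested when 2 or more libraries of a fit held a value of 10 or more, with limma 3.58.1 (R 4.3.3, lmFit and eBayes with trend) and with *p*-values adjusted by Benjamini-Hochberg over all genes tested. KO and WT were compared within a day (2 against 4 libraries), clones in fits with 3 groups, and days in a fit of 12 libraries with 4 groups. An exact permutation test of 2 against 4 libraries cannot go below a *p* of 0.0667. The 8 genes, the lists and the tests were chosen with earlier results of these data known. Named were the 8 genes, *MDM4*, *JUN*, at most 4 called genes per list and comparison (the 2 of largest change where none was called) and the 3 genes most like each called gene of the 8. A further gene of this rule is not reported here.

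Same-numbered libraries deviated together at day 12 (*r* of deviations across genes 0.428 to 0.598 for the 3 pairs of lines) and not in all pairs at day 24 (-0.106 to 0.346). The replicate numbers, which come from the labels, may thus pair the libraries of day 12. The main fits of both days left this pairing out, and it entered only as the replicate block among the alternatives. Alternatives were 2 other filters, pseudocounts of 0.1 and 5, no trend, centred libraries, a replicate block, clones as separate groups, 1 fit of 12 libraries and each library left out. The tests were tried on simulated data first. Figures used matplotlib 3.10.9.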

Additional observations from a re-analysis of the deposited data

Results flagged for a closer look

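For 4 of the target genes the KO minus WT difference changed between the days by a test of the interaction (limma, Benjamini-Hochberg over 9952 genes). In this test 0.854% of all tested genes were called lower and 0.452% higher. With each library left out in turn, 1 to 5 of the target genes were called. *GDF15* passed the filter on low values only with a WT library of day 24. The change in the log2 difference from day 12 to day 24 was -5.416 for *GDF15* (adjusted *p* = 0.00282), -2.704 for *CDKN1A* (0.0257), -1.575 for *SESN1* (0.0367) and -1.575 for *PLK2* (0.0399). *CDKN1A* was higher in 4 of 4 KO libraries than in both WT libraries at day 12 and lower in 4 of 4 at day 24, and the same held for *SESN1*. The order of day 12 was found in 8.23% of all tested genes and that of day 24 in 21.8%. How many genes had both was not counted. Neither gene passed the test at day 12 (adjusted *p* = 0.143 for *CDKN1A* and 0.513 for *SESN1* by limma).

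Single libraries lay far from the other 3 of their group in 2 cases of 18 groups of 4 KO libraries tested, where chance alone marks about 1 in 20 (Dixon's test, gap to the nearest library over the whole range). Gaps and ranges are those of log2 (value + 1), while the values printed are as deposited. *PLK2* was at 39 in KO#10 replicate 1 of day 24, against 19 to 21 in the other 3 KO libraries, with a gap of 0.862 of the range. The summed mesenchyme and endoderm markers of this library were also above those of the other 3. *CDKN1A* was at 25 in KO#10 replicate 2 of day 12, against 36 to 38 in the other 3, with a gap of 0.87 of the range, and it was still above both WT libraries.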

How the results depend on the processing

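Of 1418 values of single genes under the alternatives, 1317 kept their side of the threshold, 86 lost and 15 gained a call, and 0 called values reversed. Among the 1317 were 21 values, called in neither fit, that changed sign. With each library left out in turn, the number of the 8 genes called ranged from 0 to 4 for KO against WT at day 24 (4 with all libraries), was 0 throughout at day 12 (1), and ranged from 1 to 2 with time in WT (2), 2 to 3 with time in KO (2), 1 to 5 for the interaction (4), 0 to 3 for KO#2 at day 24 (3) and was 0 throughout for KO#10 at day 24 (1). Leaving out 1 WT library leaves the other to stand for its group, with a spread taken from the other groups. At day 12, the 1 call (*PLK2*) became 0 with a filter of at least 1 in 1 library (adjusted *p* = 0.0796), with clones as separate groups (0.0706) and in 1 fit of 12 libraries (0.0972). With time in KO, a pseudocount of 5 left 1 call. For KO#10 at day 24, the 1 call became 0 with the filter of at least 1 or a pseudocount of 0.1, 2 with a pseudocount of 5 or centred libraries, and 4 in 1 fit of 12 libraries. With the replicate block, KO#10 at day 24 had 0 calls and KO#2 at day 12 had 1 (*PLK2*, adjusted *p* = 0.0477), and over all genes the block moved the calls at day 12 from 2 higher and 6 lower to 36 and 35, and those of the interaction from 45 and 85 to 158 and 210. Apart from these and *MDM4* at day 24, it changed no call of the 8 genes or *MDM4*. The filter of at least 20 at day 24 left 271 genes higher and 205 lower in place of 392 and 352, and 1 fit of 12 libraries gave 589 and 528. The cause of these changes was not tested. Depth is unknown, and values of 1 to 11, such as those of *GDF15* in all libraries but the WT ones of day 24, carry a coarse step.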
